A study of Caenorhabditis elegans with 8 samples.

Results

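The core insulin signalling pathway of C. elegans comprised 10 genes here, from the receptor gene daf-2 to the transcription factor genes daf-16 and skn-1. Its members were chosen by gene symbol, and each of the 10 was represented by its only probe, out of 26128 genes with a probe of a single symbol. Total RNA of wild-type N2 Bristol worms was hybridised to 8 arrays, each from a synchronized population that was fed OP50 E. coli and received M9 buffer but no other intervention. The adults were at day 1 on 3 arrays, at day 6 on 3 and at day 12 on 2. The question was how the transcripts of this pathway stood in young, middle-aged and old adults. The labels call the replicates biological but do not say whether they came from separate cultures, so p-values measure only the spread between these arrays.

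In this pathway, insulin-like peptides bind the receptor DAF-2, which activates the phosphoinositide 3-kinase AGE-1, and its lipid product brings the kinases PDK-1, AKT-1 and AKT-2 to the membrane. DAF-18 is a phosphatase that removes that lipid. The activated kinases phosphorylate the FOXO factor DAF-16 and the Nrf-related factor SKN-1 and hold them out of the nucleus, so control of both factors is exerted largely on the proteins and their location, which arrays do not measure. Loss of daf-2 function extends adult lifespan in a way that requires daf-16.

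Values are log2 signals as deposited, which have no detection calls. A mean under 3 is treated as dim, which 63.2% of the 26761 tested probes were, and a difference from or to a dim level may understate the change. Array medians lay between 2.32 and 2.40, and Pearson's r over probes, which are not independent replicates, lay between 0.984 and 0.990 for arrays of 1 day and between 0.941 and 0.981 for arrays of different days. A probe was called at an adjusted p under 0.05 by limma with Benjamini-Hochberg adjustment over the 26761 tested probes. Among the 9861 probes with a mean of at least 3, the median log2 difference was 0.12 for day 6 against day 1 and 0.11 for day 12 against day 1. It was 0.02 and 0.01 after cyclic loess normalization, and differences are read against that shift. Among probes with a mean of at least 3, the share called was counted only for calls higher than day 1. With 2 or 3 arrays a day, precision is limited by their number, and no label gives a batch or processing date, so batch and age cannot be told apart.

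The receptor gene and the gene of the kinase that phosphorylates AKT were higher by day 6 and at similar levels at day 12. The gene akt-2 and skn-1 were higher at day 12 than at day 1. The estimated differences of daf-16 itself, as deposited, were at most 0.09 on the log2 scale in the 3 comparisons, with wide intervals given below. In day 6 against day 1, 2 of the 10 genes rose (daf-2 and pdk-1), 0 fell and 8 were not called. The background was 2.18% of tested probes called higher and 1.66% called lower, with 5.31% called higher among those with a mean of at least 3. In day 12 against day 1, 4 rose (daf-2, pdk-1, akt-2 and skn-1), 0 fell and 6 were not called, against a background of 9.58% called higher and 4.52% lower, with 18.8% higher among probes with a mean of at least 3. In day 12 against day 6 limma called 0 of the 10, with 1 at an unadjusted p under 0.05, against 9.05% of probes called in either direction (6.36% higher and 2.69% lower). The median log2 difference over the 10 genes, 1 of them dim, was 0.32, 0.14 and 0.02 in these 3 comparisons. It was 0.02, -0.01 and -0.03 over all tested probes, and 0.12, 0.11 and -0.03 over those with a mean of at least 3. The median at day 12 against day 1 was thus close to that of the brighter probes. The comparisons of day 6 and of day 12 with day 1 share the day 1 arrays.

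**Figure D1:**
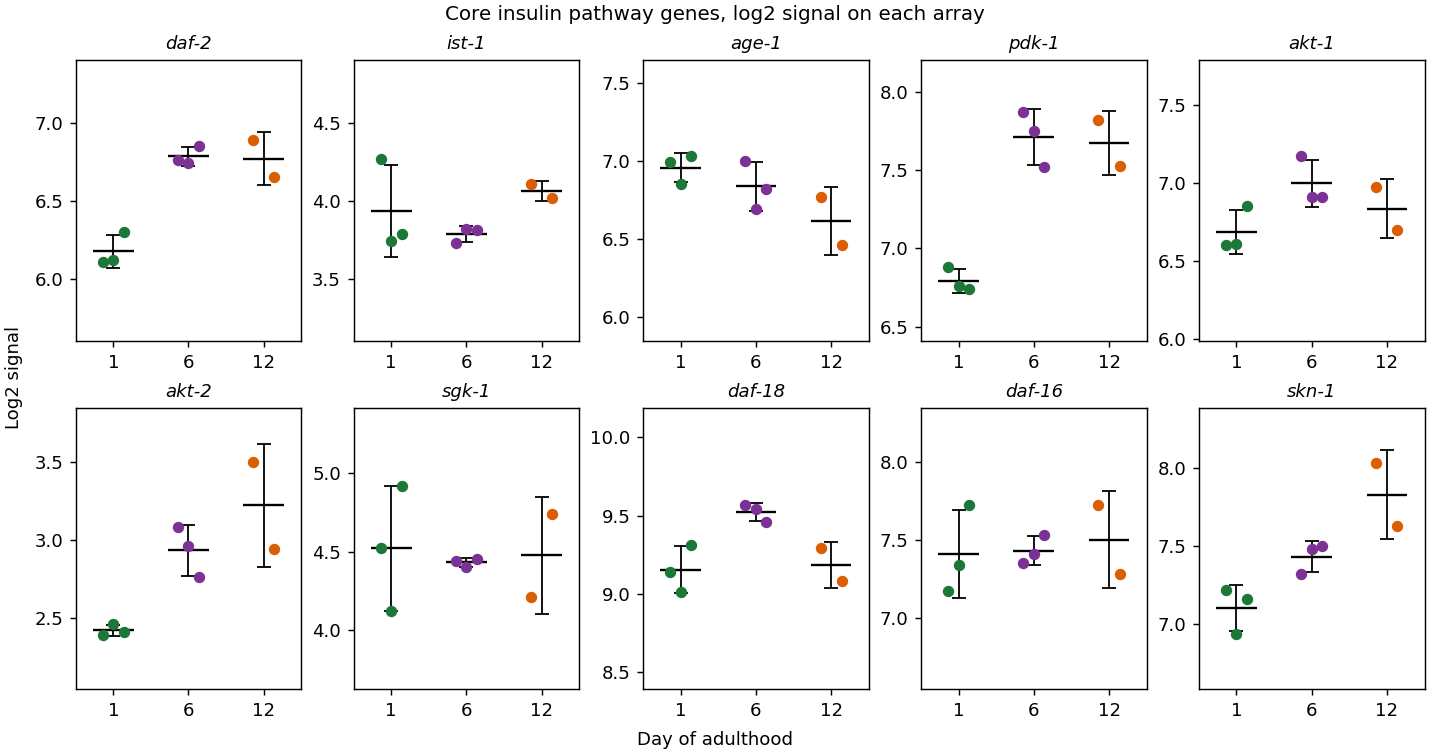
Log2 signal (y axis, each panel spanning the same range) of the 10 pathway genes by day of adulthood (x axis). Points are single arrays, horizontal lines are day means and bars are ± SD (n = 3, 3 and 2). The day 6 and day 12 arrays of pdk-1 lie between 7.52 and 7.87, above its 3 day 1 arrays, while those of daf-16 overlap at all 3 ages.

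At the top of the pathway, daf-2, the only insulin/IGF-1 receptor gene of the worm, had log2 signals of 6.11, 6.12 and 6.30 at day 1, 6.76, 6.74 and 6.85 at day 6, and 6.89 and 6.65 at day 12. All 5 later arrays lay above the 3 day 1 arrays, and the day 6 and day 12 arrays overlapped. Of tested probes, 14.3% had all day 6 arrays above day 1 and 21.1% had all day 12 arrays above day 1. The signal averaged 6.78 ± 0.06 at day 6 against 6.18 ± 0.11 at day 1 (SD, n = 3 each), a log2 difference of 0.61 ± 0.14 (SE) or 1.52-fold (limma, adjusted p = 0.0372). At day 12 it averaged 6.77 ± 0.17 (n = 2), which was 0.60 ± 0.15 above day 1 (adjusted p = 0.0249) and -0.01 ± 0.15 relative to day 6 (95% interval -0.35 to 0.33). Both calls of daf-2 were close to the threshold. The day 6 call was lost with quantile (adjusted p = 0.0828) and cyclic loess normalization (0.0993), and on leaving out day 1 replicate 1 (0.0996), day 1 replicate 2 (0.0975) or any day 6 array (0.0890 to 0.133). The day 12 call was lost with the same normalizations (0.0553 and 0.0528), in a fit of these 2 days alone (0.0723), and without day 1 replicate 1 (0.0621), day 1 replicate 2 (0.0654) or day 12 replicate 1 (0.167).

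The gene ist-1 encodes a homologue of insulin receptor substrates, the adaptors that sit on the activated receptor. Its signals were 4.27, 3.74 and 3.79 at day 1, 3.73, 3.82 and 3.81 at day 6, and 4.11 and 4.02 at day 12. The arrays of day 1 and day 6 overlapped, and day 1 replicate 1 lay above both day 12 arrays while the other two day 1 arrays lay below them. Both day 12 arrays lay above all day 6 arrays, as in 18.1% of tested probes. No comparison was called (log2 differences -0.14 ± 0.16, 0.14 ± 0.18 and 0.28 ± 0.18 for day 6 over day 1, day 12 over day 1 and day 12 over day 6).

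The pair of enzymes that make and remove the lipid signal are AGE-1, the catalytic subunit of phosphoinositide 3-kinase, and DAF-18. For age-1 the signals were 6.99, 6.85 and 7.03 at day 1, 7.0, 6.69 and 6.82 at day 6, and 6.77 and 6.46 at day 12. Both day 12 arrays lay below every day 1 array, as in 17.4% of all tested probes, but the difference of -0.34 ± 0.17 was not called (adjusted p = 0.249, 95% interval -0.71 to 0.03). The day 6 arrays overlapped both other days (-0.12 ± 0.15 against day 1).

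The phosphatase gene daf-18 had signals of 9.14, 9.01 and 9.31 at day 1, 9.57, 9.54 and 9.46 at day 6, and 9.29 and 9.08 at day 12. Its day 6 arrays lay above all arrays of both other ages, and those of day 12 and day 1 overlapped. All arrays of day 12 lay below those of day 6 in 20% of tested probes. The differences of 0.37 ± 0.14 for day 6 against day 1 (adjusted p = 0.208) and -0.34 ± 0.16 for day 12 against day 6 (adjusted p = 0.264) were not called. The change in the later interval minus that in the earlier one was -0.71 ± 0.25, with an unadjusted p of 0.018 and an adjusted p of 0.188 by limma, which did not pass the threshold. That contrast called 3.46% of tested probes and 0 of the 10 genes (3 at an unadjusted p under 0.05).

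PDK-1 is the kinase that phosphorylates AKT-1, AKT-2 and SGK-1 in their activation loops, and its gene showed the largest difference of the 10 at day 6 and at day 12, each against day 1, in the values as deposited. The signals of pdk-1 were 6.88, 6.76 and 6.74 at day 1, 7.87, 7.75 and 7.52 at day 6, and 7.82 and 7.53 at day 12. The lowest later array stood above the highest day 1 array, and the days 6 and 12 overlapped. It averaged 7.71 ± 0.18 at day 6 against 6.79 ± 0.08 at day 1, a log2 difference of 0.92 ± 0.15 or 1.89-fold (adjusted p = 0.0107). At day 12 it averaged 7.67 ± 0.21, which was 0.88 ± 0.17 or 1.84-fold above day 1 (adjusted p = 0.00519) and -0.04 ± 0.17 relative to day 6. Leaving out day 6 replicate 1 ended the day 6 call (0.84, adjusted p = 0.0574). Leaving out day 12 replicate 1 ended the day 12 call (0.73, adjusted p = 0.0554). Its change in the later interval was below that in the earlier one by 0.96 ± 0.27 on the log2 scale, which the test of the difference did not call (adjusted p = 0.0971).

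AKT-1 and AKT-2 are the kinases that phosphorylate DAF-16. The signals of akt-1 were 6.60, 6.61 and 6.85 at day 1, 7.17, 6.91 and 6.91 at day 6, and 6.97 and 6.70 at day 12. Its day 6 arrays lay above those of day 1, as in 14.3% of tested probes, and day 12 overlapped both, with no comparison called (0.31 ± 0.15 for day 6 against day 1, adjusted p = 0.345, and 0.15 ± 0.17 for day 12 against day 1, adjusted p = 0.68). The probe of akt-2 was dim, with signals of 2.39, 2.46 and 2.41 at day 1, 3.08, 2.96 and 2.76 at day 6, and 3.50 and 2.94 at day 12. Every later array stood above the day 1 arrays. The gene akt-2 was 0.80 ± 0.19 or 1.74-fold higher at day 12 than at day 1 (adjusted p = 0.0168), whereas 0.51 ± 0.17 at day 6 against day 1 was not called (adjusted p = 0.147). Without day 12 replicate 1 the day 12 difference was 0.52 (adjusted p = 0.151).

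SGK-1, a kinase related to AKT that also acts downstream of PDK-1, had a gene whose arrays overlapped between all 3 ages. The sgk-1 signals were 4.52, 4.12 and 4.92 at day 1, 4.44, 4.40 and 4.45 at day 6, and 4.21 and 4.74 at day 12. The SD was 0.40 at day 1, 0.02 at day 6 and 0.37 at day 12, and the differences were -0.09 ± 0.21, -0.04 ± 0.24 and 0.05 ± 0.24 for day 6 over day 1, day 12 over day 1 and day 12 over day 6. The 95% interval for day 12 against day 1 ran from -0.57 to 0.49, so changes of either sign within it remain compatible with these arrays.

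The FOXO gene daf-16 had signals of 7.17, 7.34 and 7.72 at day 1, 7.35, 7.41 and 7.53 at day 6, and 7.72 and 7.28 at day 12. The arrays of all 3 ages overlapped. Its log2 difference for day 12 against day 1 was 0.09 ± 0.20, with a 95% interval of -0.36 to 0.54 (adjusted p = 0.849), and that for day 12 against day 6 was 0.07 ± 0.20. A single probe stood for daf-16, which has several isoforms with different promoters, so a shift between isoforms could not be read here.

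SKN-1 directs genes of detoxification and oxidative stress defence. The signals of skn-1 were 7.22, 6.94 and 7.16 at day 1, 7.32, 7.48 and 7.50 at day 6, and 8.03 and 7.63 at day 12. The 3 ages did not overlap, and the order of their means was day 12 over day 6 over day 1. Of tested probes, 14.3% had all day 6 arrays above day 1 and 18.1% had all day 12 arrays above day 6. The share with both was not counted. Only the widest interval was called: skn-1 averaged 7.83 ± 0.28 at day 12 (n = 2) against 7.10 ± 0.14 at day 1 (n = 3), a log2 difference of 0.73 ± 0.17 or 1.66-fold (adjusted p = 0.0171). The steps of 0.33 ± 0.15 for day 6 against day 1 (adjusted p = 0.324) and 0.40 ± 0.17 for day 12 against day 6 (adjusted p = 0.225) were not. Leaving out day 12 replicate 1 ended this call (0.53, adjusted p = 0.150), and so did leaving out day 1 replicate 2 (0.65, adjusted p = 0.0541).

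Among the 10 genes the arrays of day 6 all lay above those of day 1 in 6, against 14.3% of tested probes and 29.1% of those with a mean of at least 3. The arrays of day 12 all lay above those of day 1 in 4, against 21.1% and 34.7%, and below them in 1. Day 12 replicate 1 had the higher signal of the 2 day 12 arrays in 9 of the 10 genes, sgk-1 being the exception. Without it 0 of the 10 genes were called in day 12 against day 1, and without day 12 replicate 2 all 4 were. Leaving out day 1 replicate 2 left 2 of the 4 calls. In day 6 against day 1, 0 of the 10 were called without day 6 replicate 1, and 1 was called without day 6 replicate 2 or 3 or without day 1 replicate 1 or 2.

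**Figure D2:**
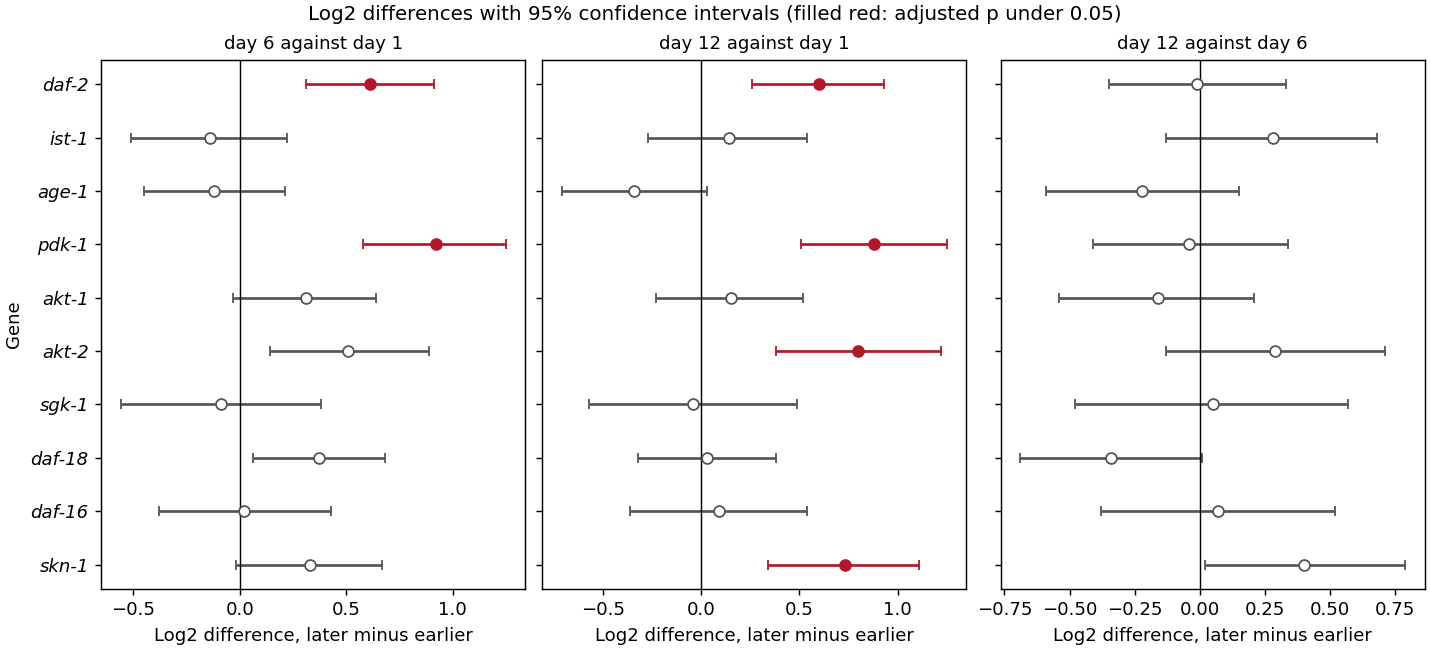
Log2 differences (x axis, later minus earlier day) of the 10 pathway genes (y axis) in the 3 comparisons. Points are limma estimates and bars their 95% confidence intervals, and red filled points have an adjusted p under 0.05. The interval of pdk-1 runs from 0.58 to 1.25 at day 6 and from 0.51 to 1.25 at day 12, each against day 1, and no gene is called between day 12 and day 6.

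The genes whose signal over the 8 arrays was most like that of each called member were found by the root mean square difference of the log2 values, each gene centred on its own mean. Over 9627 genes with a mean of at least 3, those nearest to daf-2 were ikke-1 (0.0468), chaf-1 (0.0485) and rbm-26 (0.0521), against 0.304 for daf-2 around its own mean. The nearest to pdk-1 were W08G11.3 (0.0994), T23F11.4 (0.116) and sago-1 (0.132), against 0.454 for pdk-1 itself. For akt-2 they were tbc-14 (0.0776), magi-1 (0.0927) and F44A2.5 (0.0957), and for skn-1 they were rbc-1 (0.0722), vps-50 (0.0868) and egl-27 (0.0926). The log2 differences of these 12 genes in both comparisons with day 1 ran from 0.22 to 0.93. They were picked on these same arrays for likeness to members called higher against day 1, so their positive sign follows from that choice.

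The pathway acts through partner proteins that assemble, localise or oppose its kinases. Of 16 partner genes measured, 1 rose and 0 fell at day 6 against day 1, 1 rose and 0 fell at day 12 against day 1, and 1 rose and 0 fell at day 12 against day 6. Each count is 6.25% of the list, against 2.18%, 9.58% and 6.36% of all tested probes called higher. The medians were 0.11, 0.03 and -0.03, against 0.02, -0.01 and -0.03 over all tested probes, and 5 of the 16 were dim. Over probes with a mean of at least 3 the medians were 0.12, 0.11 and -0.03. The first was rict-1, the Rictor subunit of the TORC2 complex that activates SGK-1. Its signals were 8.07, 8.06 and 8.11 at day 6 against 7.27, 7.24 and 7.50 at day 1, a difference of 0.74 ± 0.16 (adjusted p = 0.0321). That call was lost in 8 of 18 alternatives, among them the removal of any single array of day 6 or of day 1 replicate 1 or 2 (adjusted p of 0.0802 to 0.117). The second was asna-1, an ATPase gene that promotes insulin secretion in the worm, at 8.60 and 8.93 at day 12 against 7.65, 7.74 and 8.05 at day 1 (0.95 ± 0.18, adjusted p = 0.00561, or 0.0679 without day 12 replicate 2). The third was ftt-2, a 14-3-3 gene whose protein retains phosphorylated DAF-16 in the cytoplasm, at 8.95 and 9.28 at day 12 against 8.22, 8.28 and 8.51 at day 6 (0.78 ± 0.19, adjusted p = 0.0265). It was lost without day 6 replicate 1 (0.0880), day 6 replicate 2 (0.0823) or day 12 replicate 2 (0.225).

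Cofactors and modifiers of DAF-16 were not called at day 6 (0 of 22 by limma, 3 at an unadjusted p under 0.05, median 0.13), while 7 of 22 rose and 0 fell in day 12 against day 1 (median 0.38), and 4 rose and 0 fell in day 12 against day 6 (median 0.28). These are 31.8% and 18.2% of the list, against 9.58% and 6.36% of all tested probes called higher. Of probes with a mean of at least 3, 18.8% were called higher in day 12 against day 1. That share was not counted for day 12 against day 6, and 4 of the 22 genes were dim. The median over probes with a mean of at least 3 was 0.12, 0.11 and -0.03 in the 3 comparisons. The kinase genes cst-1 and cst-2, homologues of mammalian MST kinases, had the largest differences. The signals of cst-1 were 5.32, 5.59 and 5.89 at day 1, 5.72, 5.68 and 5.70 at day 6, and 7.41 and 7.94 at day 12. The gene cst-1 at day 12 was 2.07 ± 0.21 above day 1 (adjusted p = 8.45e-05) and 1.97 ± 0.21 above day 6 (adjusted p = 0.000214), and both calls held in all 18 alternatives. The signal of cst-2 at day 12 was 4.94-fold that of day 1 (95% interval of the log2 difference 1.37 to 3.23, adjusted p = 0.00386) and 4.3-fold that of day 6 (1.17 to 3.03, adjusted p = 0.00966), and the difference from day 6 was not called without day 12 replicate 1 (0.0521) or day 12 replicate 2 (0.0974). The cst genes are close paralogues, and whether their probes separate them is uncertain.

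The TFEB homologue gene hlh-30, a regulator of autophagy and lysosome genes, was at 7.81 and 7.67 at day 12 against 6.99, 6.97 and 6.86 at day 1 (0.80 ± 0.16, adjusted p = 0.00757), and 0.88 ± 0.16 above day 6 (adjusted p = 0.00661). The transcription elongation factor gene tcer-1, needed for longevity of germline-less worms, was 0.92 ± 0.20 above day 1 (adjusted p = 0.0103). The steroid receptor gene daf-12 was 0.81 ± 0.17 above day 6 at day 12 (adjusted p = 0.0121). Without day 12 replicate 1 the calls of hlh-30 (adjusted p = 0.0617 and 0.0535), tcer-1 (0.0751, and 0.0536 without day 12 replicate 2) and daf-12 (0.103) were lost, and the list held 2 calls against day 1 and 1 against day 6. Without day 12 replicate 2 it held 4 against day 1.

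**Figure D3:**
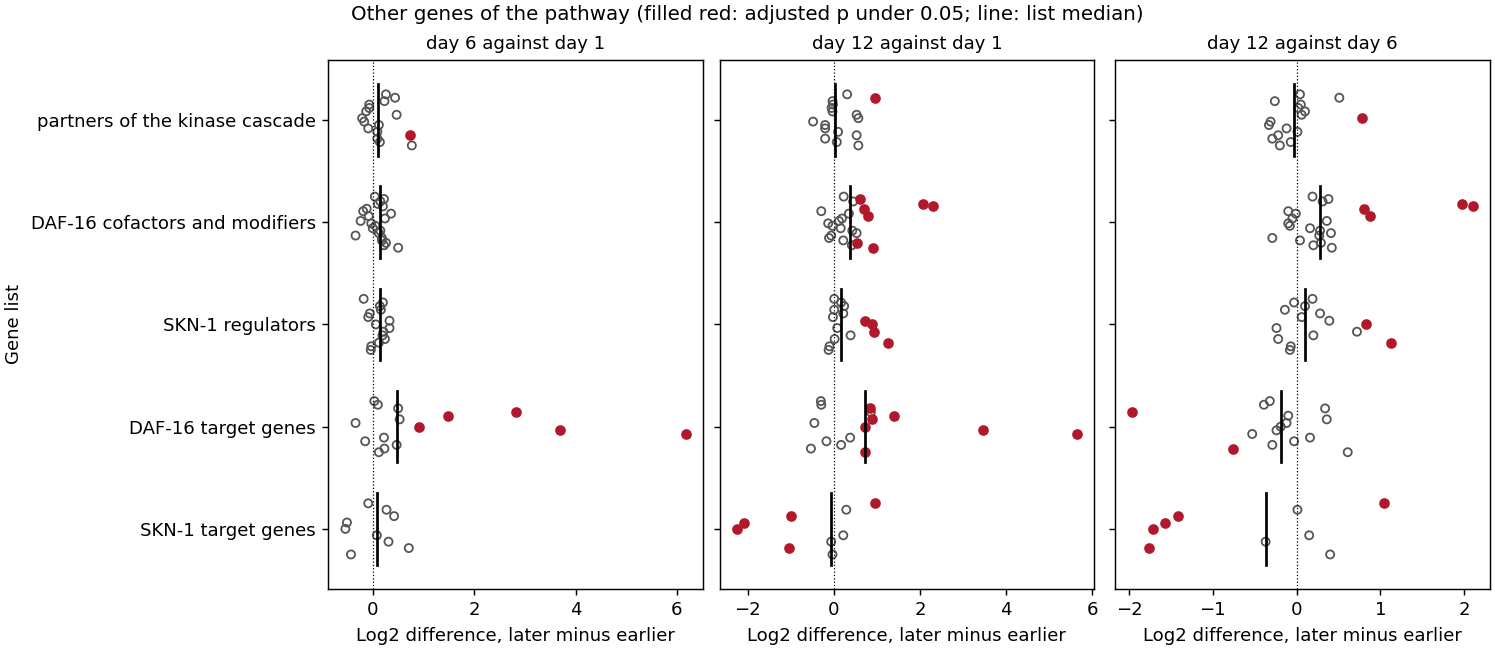
Log2 differences (x axis, later minus earlier day) of the genes in 5 other lists of the pathway (y axis) in the 3 comparisons. Each point is a gene, red filled points have an adjusted p under 0.05, and vertical lines are list medians. Red points lie to the right of 0 among DAF-16 cofactors and SKN-1 regulators, and 4 of the 5 red points of the SKN-1 target genes lie to the left of it at day 12.

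Regulators of SKN-1 include the p38 kinase cascade, in which TIR-1, NSY-1, SEK-1 and PMK-1 act in that order and PMK-1 phosphorylates SKN-1 to let it enter the nucleus. Of 15 regulators measured, 0 were called by limma at day 6 against day 1 (1 at an unadjusted p under 0.05), 4 rose and 0 fell at day 12 against day 1, and 2 rose and 0 fell at day 12 against day 6. The rises against day 1 are 26.7% of the list. Of all tested probes 9.58% were called higher there, and 18.8% of those with a mean of at least 3. The rises against day 6 are 13.3%, against 6.36% of all tested probes. For probes with a mean of at least 3 that share was not counted. The medians were 0.14, 0.17 and 0.10 in the 3 comparisons, against 0.12, 0.11 and -0.03 over probes with a mean of at least 3. The 4 that rose against day 1 were the genes of this cascade, a grouping made after their values were seen.

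The adaptor gene tir-1 was at 2.62, 2.25 and 2.38 at day 1, 2.36, 2.85 and 2.39 at day 6, and 4.19 and 3.15 at day 12. It was dim at both earlier ages. At day 12 it was 1.25 ± 0.29 above day 1 (adjusted p = 0.014), with 0.73 (adjusted p = 0.120) without day 12 replicate 1, and 1.13 ± 0.29 above day 6 (adjusted p = 0.0328), or 0.61 (adjusted p = 0.238) without that array. The call against day 6 was lost in 7 of 18 alternatives, among them quantile (0.0964) and cyclic loess normalization (0.0676), the fit of these 2 days alone (0.0632) and the removal of day 6 replicate 1 (0.101) or 3 (0.104).

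Downstream, nsy-1, the kinase gene at the head of the cascade, was at 5.35 and 5.43 at day 12 against 4.99, 4.40 and 4.61 at day 1 (0.73 ± 0.18, adjusted p = 0.0233). The middle kinase gene sek-1 was at 6.69 and 6.58 at day 12 against 5.93, 5.93 and 5.25 at day 1 (0.93 ± 0.24, adjusted p = 0.029). The p38 kinase gene pmk-1 was at 6.53, 6.88 and 6.91 at day 1, 7.01, 6.79 and 6.69 at day 6, and 7.57 and 7.75 at day 12. Its day 12 arrays lay above all others, with a difference of 0.89 ± 0.18 from day 1 (adjusted p = 0.00673) and 0.83 ± 0.18 from day 6 (adjusted p = 0.0144). Of tested probes, 21.1% had all day 12 arrays above day 1 and 18.1% had them above day 6. Both calls of pmk-1 were lost without day 12 replicate 2 (0.0675 and 0.125), and that from day 6 without day 6 replicate 3 (0.0571).

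The call of nsy-1 was lost in 8 of 18 alternatives (adjusted p up to 0.133) and that of sek-1 in 6 (up to 0.152), quantile normalization among them for both (0.107 and 0.0706), and cyclic loess left 2 of the 4 genes called. Without day 12 replicate 1 or day 12 replicate 2, 1 of the 15 regulators was called against day 1, and without day 1 replicate 3, 2 were. Against day 6, 1 was called without day 6 replicate 1, day 12 replicate 1 or day 12 replicate 2, and 0 without day 6 replicate 3.

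SKN-1 is known to activate genes of detoxification. Of 9 target genes measured, 0 were called by limma at day 6 against day 1 (4 at an unadjusted p under 0.05), and 1 rose and 4 fell at day 12, both against day 1 and against day 6, with medians of 0.08, -0.06 and -0.37. Over all tested probes, 9.58% were called higher and 4.52% lower at day 12 against day 1, and 6.36% higher and 2.69% lower against day 6. The 4 genes not called at day 12 against day 1 were gcs-1 (0.29 ± 0.14), gst-5 (0.22 ± 0.20), gst-7 (-0.06 ± 0.18) and sdz-8 (-0.03 ± 0.36). The glutathione S-transferase gene gst-4, a common reporter of SKN-1 activity, was at 6.84, 7.26 and 6.63 at day 1, 6.41, 6.39 and 6.32 at day 6, and 4.61 and 4.71 at day 12. Its 2 day 12 arrays lay far below the other 6, with differences of -2.25 ± 0.19 from day 1 (adjusted p = 2.83e-05) and -1.71 ± 0.19 from day 6 (adjusted p = 0.000294). The related gst-13 was at 8.32, 8.27 and 7.72 at day 1, 7.66, 7.53 and 7.59 at day 6, and 6.08 and 5.97 at day 12, and fell by 2.08 ± 0.20 at day 12 against day 1 (adjusted p = 5.36e-05). All calls of gst-4 and gst-13 held in all 18 alternatives.

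The related gst-10 was at 3.61, 3.55 and 3.02 at day 1, 3.96, 3.73 and 3.75 at day 6, and a dim 2.34 and 2.47 at day 12. Its day 12 differences were -1.41 ± 0.20 from day 6 (adjusted p = 0.00119) and -0.99 ± 0.20 from day 1 (adjusted p = 0.00686, or 0.0583 without day 12 replicate 1). The nitrilase gene nit-1 was at 2.75 and 3.10 at day 12 against 5.14, 4.60 and 4.33 at day 6 (-1.76 ± 0.30, adjusted p = 0.00395). Its call against day 1 (-1.05 ± 0.30, adjusted p = 0.0421) was lost in 9 of 18 alternatives, with adjusted p up to 0.244. The exception was dhs-8, a short-chain dehydrogenase gene named after its values were seen. It was dim at day 1 and day 6, and 0.95 ± 0.23 above day 1 at day 12 (adjusted p = 0.0168). Its day 12 arrays were at 3.53 and 2.76, and its call against day 1 did not hold without day 12 replicate 1. Without day 12 replicate 1, 2 of the 9 target genes were called in day 12 against day 1.

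**Figure D4:**
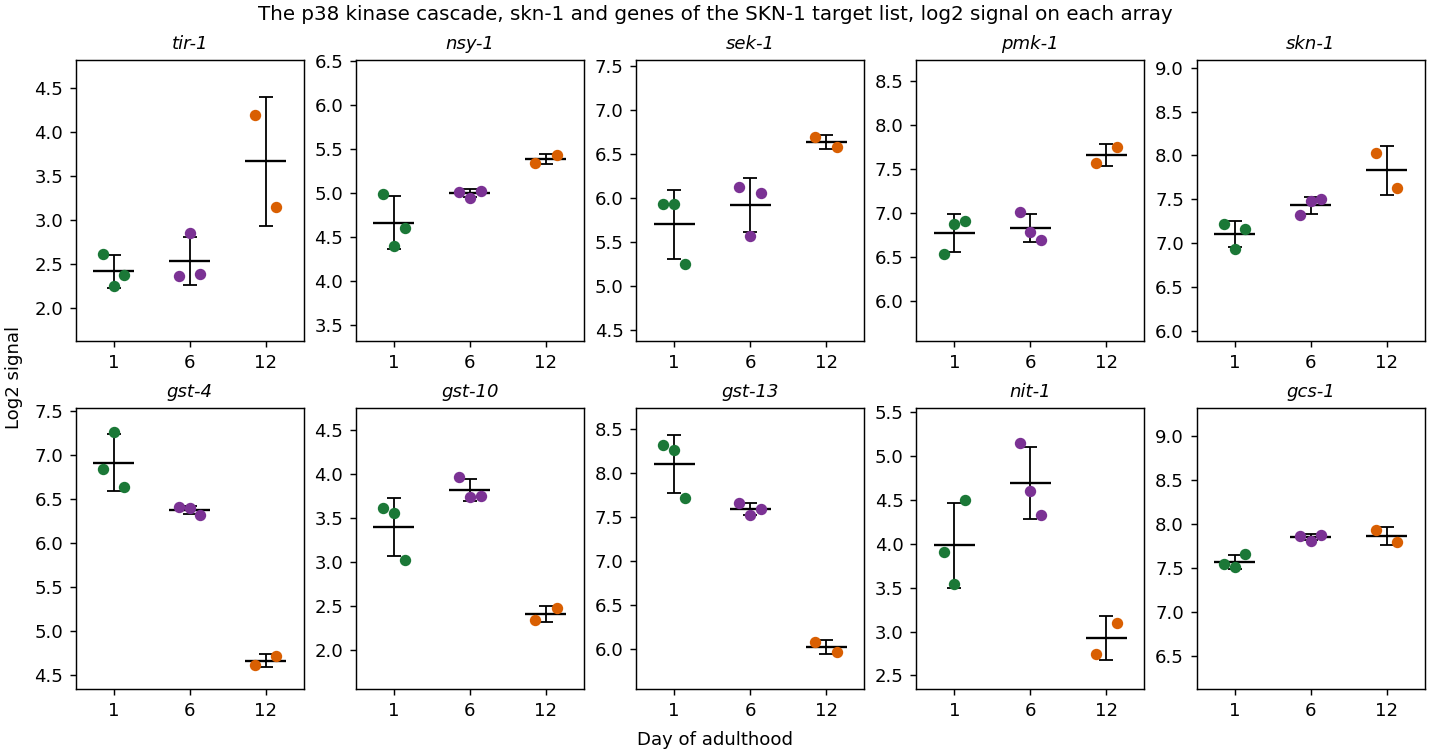
Log2 signal (y axis, each panel spanning the same range) by day of adulthood (x axis) of the p38 cascade genes, skn-1 and 5 genes of the SKN-1 target list. Points are single arrays, lines are day means and bars ± SD (n = 3, 3 and 2). The day 12 arrays of gst-4 lie at 4.61 and 4.71, below all others, while those of pmk-1 lie at 7.57 and 7.75, above all others, and gcs-1 is shown as a target that was not called.

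Genes that DAF-16 activates in worms with reduced insulin signalling were higher in part. Of 15 measured, 5 rose and 0 fell at day 6 against day 1, 7 rose and 0 fell at day 12 against day 1, and 0 rose and 2 fell at day 12 against day 6, with medians of 0.47, 0.72 and -0.19. The counts that rose are 33.3% and 46.7% of the list, against 2.18% and 9.58% of all tested probes called higher (5.31% and 18.8% of those with a mean of at least 3), and the 2 that fell are 13.3%, against 2.69% called lower. Like the other lists, this one was chosen with earlier results of these data known, so these shares are not independent evidence about DAF-16 targets. These rises and falls sit beside daf-16 differences of 0.02, 0.09 and 0.07 in the same order of comparisons, none of them called. The 95% intervals of daf-16 against day 1 were -0.38 to 0.43 at day 6 and -0.36 to 0.54 at day 12. Changes of either sign within them remain compatible with these arrays. Over probes with a mean of at least 3 the median differences from day 1 were 0.12 and 0.11. With cyclic loess normalization the day 6 difference of daf-16 from day 1 was -0.11. The metallothionein gene mtl-1 (6.17 ± 0.33 at day 6 against day 1, adjusted p = 2.56e-05) and the lysozyme gene lys-7 (3.70 ± 0.31, adjusted p = 0.000439) were still higher at day 12 than at day 1, by 5.64 ± 0.36 and 3.46 ± 0.35. The day 1 mean of mtl-1 was a dim 2.57. The ferritin gene ftn-1 was at 2.91, 3.13 and 3.99 at day 6 against 1.95, 2.15 and 1.45 at day 1 (1.49 ± 0.28, adjusted p = 0.0175), starting from a dim level.

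The gene dod-3, named for lying downstream of daf-16, was at 1.88, 2.06 and 1.93 at day 1, 4.76, 4.22 and 5.35 at day 6, and 2.71 and 2.93 at day 12. Its fall of 1.96 ± 0.27 at day 12 against day 6 was called (adjusted p = 0.00112), as was that of 0.76 ± 0.18 in the superoxide dismutase gene sod-3 (adjusted p = 0.0241), which was lost with the intensity trend in the variance (0.0617) and on leaving out day 6 replicate 1 or 3 or either day 12 array (0.0502 to 0.173). The mean of sod-3 was 3.40 at day 6 and a dim 2.64 at day 12. The small heat shock gene hsp-12.6 was 0.89 ± 0.23 above day 1 at day 12 (adjusted p = 0.027). Its call was lost in 5 of 18 alternatives, with quantile (0.104) and cyclic loess normalization (0.0707) and without day 1 replicate 1 (0.0727), day 1 replicate 3 (0.072) or day 12 replicate 2 (0.244). In day 12 against day 1 this list held 2 calls without day 12 replicate 2 and 4 without day 12 replicate 1 or day 1 replicate 1.

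In whole animals, fewer cells of a type and less RNA per cell cannot be told apart. Several markers of intestine and body wall muscle fell over the same ages. Over all tested probes, 1.66% were called lower at day 6 and 4.52% at day 12, each against day 1. Of 10 intestine markers, 4 fell at day 6 and 6 at day 12, each against day 1. Their mean log2 signal per array was 7.92 to 8.36 at day 1, 7.23 to 7.49 at day 6 and 6.34 to 6.47 at day 12. Of 10 body wall muscle markers 7 and 9 fell, with mean signals of 7.22 to 7.44, 5.60 to 6.49 and 4.66 to 5.08. Neuronal markers, 3 of 11 dim, had 0 called by limma at day 6 (4 at an unadjusted p under 0.05) and 2 of 11 higher at day 12. Those 2 are 18.2% of the list, against 9.58% of all tested probes and 18.8% of those with a mean of at least 3 called higher. The neuronal means were 4.97 to 5.05, 4.73 to 4.87 and 5.17 to 5.31. Of 8 hypodermis markers, 3 of them dim, 0 were called at day 6 (2 at an unadjusted p under 0.05), and 2 rose and 1 fell at day 12. Germline and oocyte markers had 1 of 14 higher at day 6, and 2 higher and 1 lower at day 12. Embryo markers, 7 of 13 dim, had 1 and 4 higher (7.69% and 30.8%). At day 6 against day 1, 2.18% of all tested probes and 5.31% of those with a mean of at least 3 were called higher. Sperm markers were dim in 8 of 9, with 0 called at day 6 (1 at an unadjusted p under 0.05) and 1 higher at day 12. The part of these shifts in the pathway's values was not tested.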

How the data were processed

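The authors deposited one table of 29317 probes by 8 Affymetrix C. elegans Gene 1.1 ST arrays, read here as log2 signal because the values run from 0.68 to 13.23. The sources used here name no log base, normalization or software. A platform annotation table gave 26281 probes 1 symbol, 480 several and 2556 none, and the 26761 probes with a symbol were tested. In R 4.3.3, limma 3.58.1 (lmFit, eBayes with defaults, two-sided, 5 residual and 5.07 prior degrees of freedom) fitted 1 mean per day to all 8 arrays. An interval contrast tested whether the later change differed from the earlier one. The intervals are of unequal length, so it compares total changes and not rates per day. The fit was checked on simulated data. The brightest probe stood for a gene, which mattered for no member. The members, lists, marker genes and tests were chosen with earlier results of these data known. All 10 members were named, with up to 4 called genes per list and comparison of the largest absolute difference and the 3 most similar genes for each called member. The alternatives were other variance moderation, scaling, filters, probe sets, arrays and a replicate block. Of the listed marker genes, opt-2, ssp-9 and elt-5 had no probe of 1 symbol and were not used.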

Additional observations from a re-analysis of the deposited data

Results flagged for a closer look

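No group held the 4 arrays needed to test a single array for standing apart. The change between day 6 and day 12 minus the change between day 1 and day 6 differed from 0 by limma in 6 of the named genes, with Benjamini-Hochberg adjustment over all tested probes. It was called in none of the 10 core genes and in 3.46% of tested probes. The named list genes had been picked for called differences between the same days. Their count therefore cannot be set against that share or against the core genes. It was 1.87 ± 0.34 (SE, log2) for cst-1 (adjusted p = 0.0139), which was called higher at day 12 against day 6 and not at day 6 against day 1. It was -6.70 ± 0.59 for mtl-1 (adjusted p = 0.000396), -4.77 ± 0.44 for dod-3 (0.000468) and -3.95 ± 0.56 for lys-7 (0.00437), 3 DAF-16 target genes that rose in the earlier interval. It was -1.83 ± 0.32 for gst-10 (0.0125) and -2.47 ± 0.48 for nit-1 (0.0211), both SKN-1 target genes called lower in the later interval. The call of cst-1 was lost without any single day 6 array (adjusted p = 0.0586 to 0.0634), and that of gst-10 without day 6 replicate 1 (0.0707) or 3 (0.0504). That of nit-1 was lost without day 6 replicate 1 or 2 or either day 12 array (0.0543 to 0.0997).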

How the results depend on the processing

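Each result was recomputed under variance moderation with an intensity trend, 3 scalings, a filter on dim probes, all probes, the 2 days alone, array weights, gene means, a replicate block and each array left out. The calls of pdk-1 in both comparisons with day 1 and of akt-2 and skn-1 at day 12 held in every alternative except the arrays named beside them. Members called at day 6 against day 1 numbered 1 in place of 2 with quantile normalization, cyclic loess or the replicate block, and the filter on dim probes called 1 member (pdk-1) in the contrast of intervals, in place of 0. Same-numbered arrays of different days correlated at -0.11 to 0.11 in their deviations from the day mean, so the numbers were not taken as pairs.

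For the other lists, counts moved as follows. Partners numbered 2, 0, 0 and 0 in place of 1 at day 6 against day 1 with the intensity trend, quantile, cyclic loess and the replicate block, and 4, 4 and 2 in place of 1 at day 12 against day 1 with the intensity trend, the dim filter and the replicate block. DAF-16 cofactors numbered 4 in place of 7 at day 12 against day 1 with the replicate block. SKN-1 regulators numbered 2 in place of 4 at day 12 against day 1 with quantile, cyclic loess or the replicate block, and 1 in place of 2 at day 12 against day 6 with these or the 2 days alone. DAF-16 targets numbered 1 in place of 2 at day 12 against day 6 with the intensity trend or the replicate block.

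Leaving out 1 array gave, for day 6 over day 1, day 12 over day 1 and day 12 over day 6, these ranges of calls: members 0 to 2, 0 to 4 and 0 to 0, partners 0 to 1, 1 to 2 and 0 to 1, DAF-16 cofactors 0 to 0, 2 to 8 and 1 to 4, SKN-1 regulators 0 to 0, 1 to 4 and 0 to 3, DAF-16 targets 4 to 5, 2 to 8 and 1 to 3, and SKN-1 targets 0 to 1, 2 to 5 and 4 to 5. Over all probes they were 281 to 937 (1029 with all arrays), 2454 to 3519 (3773) and 1371 to 2568 (2423). All probes called at day 6 split into 584 higher and 445 lower, 501 and 520 with quantile, and 427 and 579 with cyclic loess. At day 12 against day 1 they split into 2564 and 1209, 2048 and 1543 with quantile, and 2196 and 1535 with cyclic loess. The replicate block called 786, 3244 and 2081 probes in the 3 comparisons, and ended the calls of daf-2 (adjusted p = 0.0725) and rict-1 (0.0512) at day 6, of nsy-1 (0.0539), sek-1 (0.07) and nit-1 (0.1) at day 12 against day 1, of tir-1 (0.0711) and sod-3 (0.08) at day 12 against day 6, and of nit-1 between intervals (0.0504).

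Among the results recomputed, signs turned only for differences that were not called. With quantile and cyclic loess these were daf-2 (0.01 and 0.03), pdk-1 (0.00 and 0.02) and sgk-1 (-0.15 and -0.02) at day 12 against day 6, ist-1 at day 12 against day 1 (-0.14 and -0.03) and daf-16 at day 6 against day 1 (-0.08 and -0.11). With the replicate block they were daf-2 at day 12 against day 6 (0.04) and sgk-1 at day 12 against day 1 (0.06). With an array left out, day 6 against day 1 ranged from -0.24 to 0.02 for ist-1, -0.29 to 0.11 for sgk-1 and -0.10 to 0.18 for daf-16. Day 12 against day 1 ranged from -0.31 to 0.22 for sgk-1, -0.07 to 0.13 for daf-18 and -0.13 to 0.31 for daf-16. Day 12 against day 6 ranged from -0.13 to 0.11 for daf-2, -0.19 to 0.11 for pdk-1, -0.22 to 0.31 for sgk-1 and -0.16 to 0.29 for daf-16. The contrast of intervals ranged from -0.50 to 0.06 for akt-2 and -0.12 to 0.27 for skn-1. The cause was not tested. When a day 12 array is left out, the remaining one is assumed to vary like the other days.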
